A study of Mus musculus with 2 samples.

Results

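This account covers 38 mouse genes of the lysosome and of autophagy, chosen by symbol from a fixed list and all found among the 32227 genes of the deposited tables. They were measured by single-cell RNA sequencing in Meta4 organoids, a dysplastic line from mouse stomach corpus carrying the transgene Mist1-CreERT2Tg/+ and the allele LSL-K-ras(G12D)Tg/+, in which a Cre recombinase driven by Mist1, a transcription factor gene of secretory cells, can switch on the oncogenic K-ras allele. Organoids of this single line were kept for 1 day with the solvent DMSO or with pyrvinium, an anthelmintic drug, and both arms carry the same alleles and had undergone dysplasia induction. There was 1 library per treatment, so no difference has a replicate check, no p-value was computed, and every interval is a 95% counting interval that leaves out variation between cultures.

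Lysosomes are acidic organelles in which proteases, glycosidases and lipases break down material that arrives by endocytosis or by autophagy. In autophagy a membrane closes around cytoplasm or a damaged organelle and then joins the lysosome. The ULK1 kinase and the Beclin 1 lipid kinase complex start the process, a ubiquitin-like conjugation system attaches Atg8 family proteins to the membrane, and receptors such as p62, the product of Sqstm1, tie cargo to these proteins. The transcription factors TFEB and TFE3 switch on many genes of both systems when they move to the nucleus, a step that RNA levels do not report.

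The DMSO library gave 1602 cells and the pyrvinium library 854, with medians of 18593 and 31517 counts per cell. Mitochondrially encoded genes held 2.57% and 1.63% of counts and ribosomal protein genes 26.0% and 30.8%. No cell barcode was shared between the 2 sets of cells. The 8 epithelial markers summed to 8816 CPM (counts per 1000000 counts) under DMSO and 5965 under pyrvinium, a difference mostly in keratins. Krt8 stood at 2014 and 1237 CPM, Krt18 at 3218 and 2375 and Krt19 at 2060 and 906. Epcam stood at 344 and 377 CPM, Cldn7 at 524 and 502, Cldn4 at 440 and 377, Cldn3 at 92.4 and 88.2 and Cdh1 at 124 and 102. The 4 surface mucous cell markers summed to 334 and 405 CPM, nearly all Tff1 (13304 and 14979 counts), with Muc5ac at 0 and 1 counts. The 4 chief cell markers summed to 13.3 and 5.53 CPM, with Pga5 at 0 in both libraries and the other 3 at least 1.5-fold lower under pyrvinium. Macrophages are rich in lysosomes, so their markers matter here. Of the 11 macrophage and other immune markers the defining genes Lyz2, C1qa and C1qb had 0 counts in both libraries, and Cd68, a lysosomal membrane gene that other cells also express, made up 21.0 of the 21.8 CPM of this list under DMSO and 28.3 of 29.9 CPM under pyrvinium. The pan-leukocyte gene Ptprc had 14 and 28 counts, over 1.5-fold higher under pyrvinium, and each of the other 6 had at most 10 counts in a library. In barcodes with 100 to 500 counts, which stand for free RNA, all 38 members lay within 1.5-fold of their level in cells in both libraries, so levels do not separate cells from free RNA for these genes. The part of these marker, quality and free RNA values in the differences below was not tested.

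The pyrvinium library held more RNA of the cargo receptor gene Sqstm1, of the Atg8 gene Gabarapl1 and of the lysosomal enzyme genes Hexa, Lgmn and Ctsl, and less of the Atg8 gene Map1lc3b. All 38 members had at least 20 counts in the libraries together. Of them, 6 were at least 1.5-fold higher under pyrvinium with the whole interval above 1, and 1 was at least 1.5-fold lower. Among all 15586 genes with at least 20 counts, 7.57% were higher and 15.5% lower by this rule, against 15.8% and 2.63% of the members. The members, their roles and the lists below were chosen with earlier results of these data known. Their shares are thus not independent of the data. Among the 6846 genes that also reached 10 CPM in a library, the shares were 6.34% and 14.9%. The members' median log2 ratio of pyrvinium over DMSO was 0.29, and that of all genes tested was -0.08. Scaling by the median of ratios put 8 members higher and 0 lower, with 10% and 12.5% of all genes. Most differences were small. The remaining 31 members lay under the limit, although the ratio was above 1 for 27 of the 38 and below 1 for 11.

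**Figure D1:**
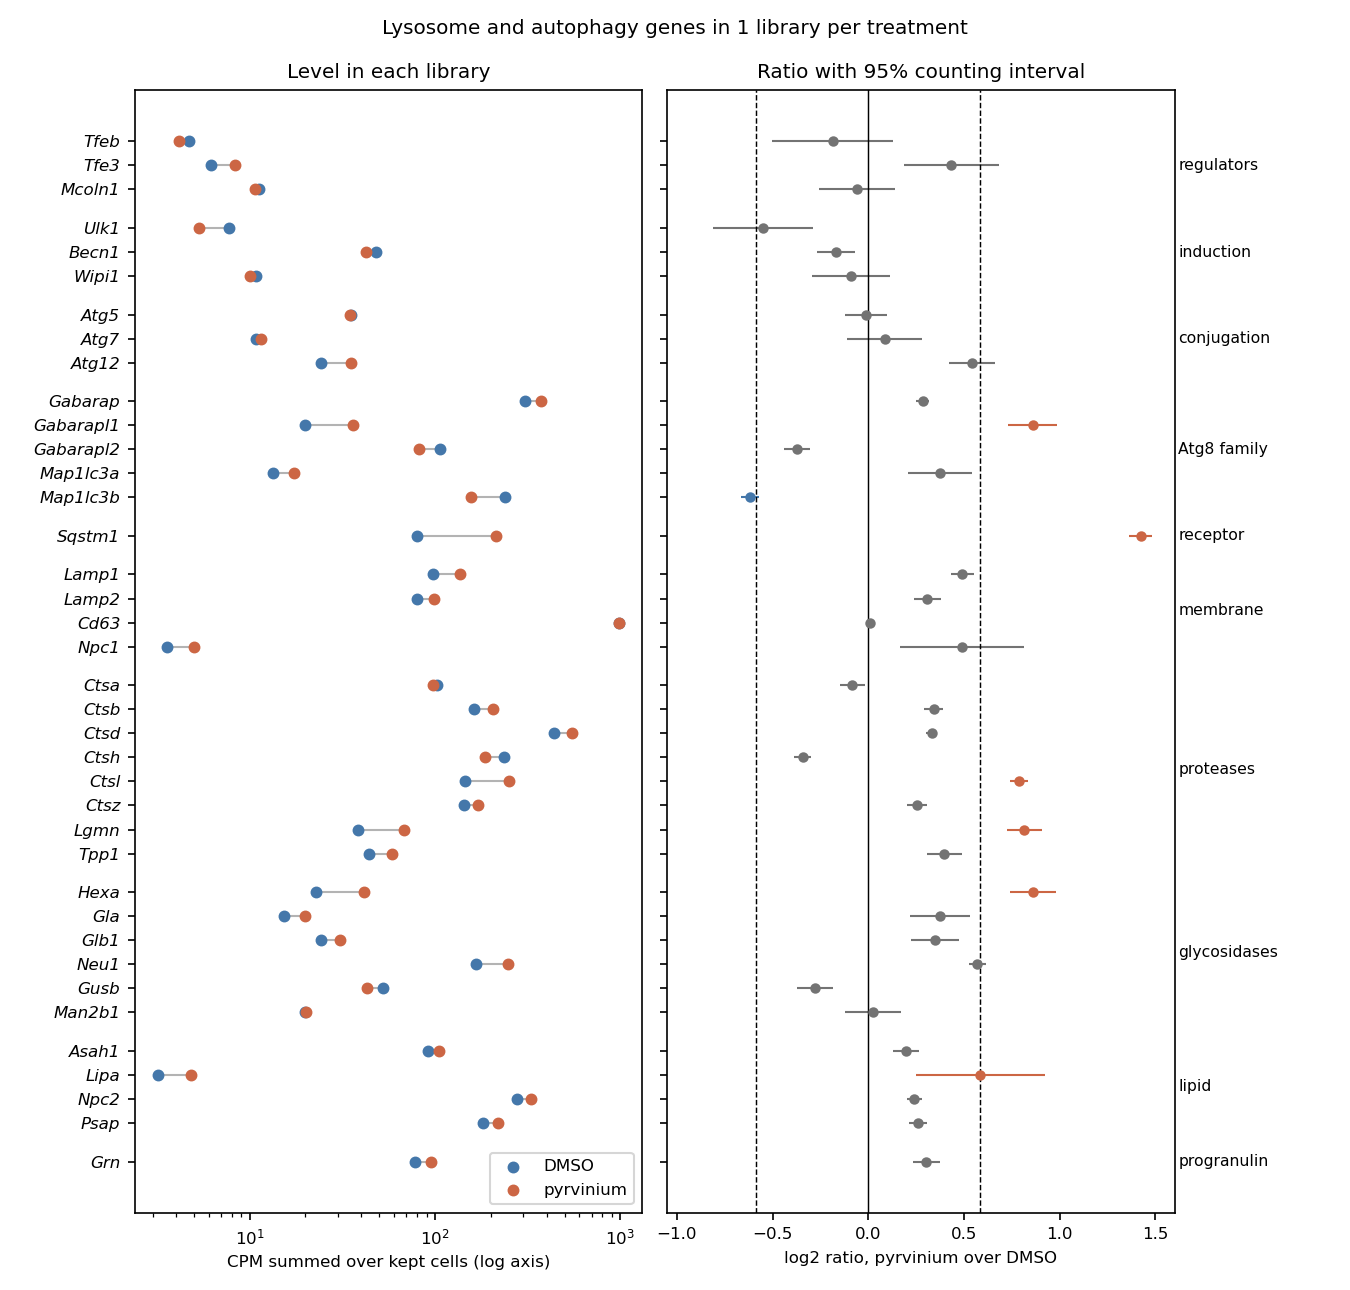
Left: level of each of the 38 genes in the DMSO (blue) and pyrvinium (orange) library, in CPM on a log axis. Right: log2 ratio of pyrvinium over DMSO with its 95% counting interval, with dashed lines at 1.5-fold and colour for genes past that limit; Sqstm1, at 1.42, lies farthest from 0.

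Sqstm1 (ENSMUSG00000015837) encodes p62, which binds ubiquitinated cargo and is itself consumed by autophagy. It stood at 79.7 CPM (interval 76.9 to 82.5) under DMSO and at 214 CPM (209 to 219) under pyrvinium. This was the highest ratio of the 38, 2.68-fold, and 98.4% of all genes tested had a lower one. With every cell thinned to 5000 counts, Sqstm1 was counted in 29.8% of DMSO cells (27.6 to 32.1) and 55.3% of pyrvinium cells (51.9 to 58.6). Without thinning the shares were 68.2% and 95.1%. The share was lowest in cluster 2 in both libraries, at 18.0% and 33.3%. No cell type that lacks the gene was identified to serve as a background.

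The Atg8 family, whose products coat the autophagosome membrane, differed in direction among its members. Gabarapl1 stood at 19.9 CPM (18.5 to 21.3) under DMSO and 36.1 CPM under pyrvinium, 1.81-fold higher (log2 ratio 0.86, 0.73 to 0.99). Map1lc3b, which encodes the widely used autophagosome marker LC3B, stood at 239 CPM (234 to 243) and 156 CPM (152 to 160), 1.53-fold lower. Its log2 ratio of -0.62 came under the limit when scaled without mitochondrial and ribosomal protein genes (-0.54), by the median of ratios (-0.53) and with equal cluster weights (-0.45). Here and below, equal cluster weights average clusters 1, 2 and 5 only, which hold at least 30 cells of each library. The cells of clusters 3, 4, 6 and 7 are left out of that setting. The other family members lay under 1.5-fold. Gabarap stood at 305 and 372 CPM, Gabarapl2 at 106 and 81.7, and Map1lc3a at 13.4 and 17.4. Summed, the 5 genes gave 683 CPM under DMSO and 663 under pyrvinium, so the family's total lay close between libraries while its makeup differed.

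In thinned cells the share with Gabarapl1 was also higher and that with Map1lc3b lower under pyrvinium. Gabarapl1 was counted in 9.11% of DMSO cells (7.75 to 10.6) and 15.7% of pyrvinium cells (13.3 to 18.3), and Map1lc3b in 65.0% (62.6 to 67.4) and 50.7% (47.3 to 54.1). Gabarap was counted in 75.4% and 82.4%, Gabarapl2 in 38.6% and 32.8%, and Map1lc3a in 7.37% (6.13 to 8.76) and 7.61% (5.92 to 9.60), which this depth could not separate. Without thinning the shares were 33.9% and 67.8% for Gabarapl1 and 94.6% and 94.5% for Map1lc3b. After thinning, the lowest shares with Gabarapl1 were 7.49% in cluster 5 under DMSO and 2.38% of the 42 cells of cluster 2 under pyrvinium. For Map1lc3b the lowest were 51.7% in cluster 1 under DMSO and 44.1% in cluster 5 under pyrvinium.

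Genes that start autophagy or run the conjugation of Atg8 proteins gave no call over all cells. Ulk1, the kinase gene at the top of the pathway, stood at 7.78 CPM (6.94 to 8.69) under DMSO and 5.32 CPM (4.60 to 6.11) under pyrvinium. Its log2 ratio of -0.55 lay just inside the limit and passed it at cell thresholds of 1000 and 3000 counts (-0.59 and -0.62), without the cells of highest doublet score (-0.62) and with equal cluster weights (-1.14). Becn1, which encodes Beclin 1, stood at 47.8 and 42.5 CPM, and Wipi1, whose product binds the forming membrane, at 10.8 and 10.1. Atg5 and Atg7, the latter the activating enzyme of conjugation, were at 35.1 and 34.8 CPM and at 10.9 and 11.5. Atg12, the ubiquitin-like partner of Atg5, stood at 24.4 CPM (22.9 to 25.9) and 35.4 CPM (33.5 to 37.4). Its ratio passed 1.5-fold when scaled without mitochondrial and ribosomal protein genes (0.62), by the median of ratios (0.63) and with equal cluster weights (0.81).

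The transcription factor genes were sparse. Tfeb stood at 4.73 CPM (4.08 to 5.45) under DMSO and 4.16 CPM (3.53 to 4.87) under pyrvinium, and Tfe3 at 6.18 (5.43 to 7) and 8.34 (7.44 to 9.33). Among the alternatives over cells, the Tfe3 log2 ratio of 0.43 passed the limit only with equal cluster weights (0.60). Within cluster 5 it also passed, at 0.92 (0.19 to 1.66). Mcoln1 encodes the lysosomal calcium channel TRPML1, which acts upstream of TFEB, and stood at 11.2 and 10.7 CPM. With equal cluster weights, which leave out cluster 4 (18.2 CPM in its pyrvinium cells), the log2 ratio of Mcoln1 went from -0.06 to -0.65. In cells of like depth it was 0.17. Mitf, another gene of this factor family, stood at 0.83 and 0.76 CPM.

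Lysosomal enzyme genes were mostly a little higher under pyrvinium. Of the 23 lysosome members, 4 were at least 1.5-fold higher and 0 lower, with a median log2 ratio of 0.33, and 20 had a ratio above 1. These are 17.4% higher and 0% lower, against 7.57% and 15.5% of all genes tested. Of the 12 autophagy members 2 were higher and 1 lower, with a median of 0.04 and 6 ratios on each side of 1. Hexa, the alpha subunit gene of beta-hexosaminidase, stood at 22.9 CPM (21.5 to 24.4) under DMSO and 41.6 CPM (39.6 to 43.8) under pyrvinium, 1.82-fold higher. Lgmn encodes legumain, a protease that cuts after asparagine and matures several cathepsins. It stood at 38.5 CPM (36.6 to 40.4) and 67.7 CPM (65.1 to 70.4), 1.76-fold higher. Ctsl, the gene of the cysteine protease cathepsin L, stood at 145 CPM (141 to 148) in the DMSO library and between 245 and 255 CPM by its interval in the pyrvinium library, 1.73-fold higher. Lipa, the acid lipase gene, stood at 3.20 CPM (2.67 to 3.81) and 4.81 CPM (4.12 to 5.56). Its log2 ratio of 0.59 sat on the limit and was under it in 4 alternatives, between 0.56 and 0.57.

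In thinned cells Ctsl was counted in 46.7% (44.2 to 49.2) under DMSO and 69.2% (66.0 to 72.3) under pyrvinium, Lgmn in 17.4% (15.5 to 19.3) and 29.3% (26.2 to 32.5), and Hexa in 11.9% (10.4 to 13.6) and 18.3% (15.7 to 21.0). Without thinning the shares were 83.8% and 98.5% for Ctsl, 52.9% and 81.6% for Lgmn and 34.8% and 67.2% for Hexa. Cluster 2 had the lowest shares in both libraries for Ctsl (37.4% and 57.1%) and Hexa (6.15% and 9.52%). For Lgmn the lowest were 12.1% in cluster 2 under DMSO and 20.8% in cluster 4 under pyrvinium. The Lipa shares, 1.81% and 2.58%, had intervals that overlapped, so this depth could not separate them.

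The other proteases gave ratios in both directions. Ctsb stood at 162 and 205 CPM, Ctsd, the gene of the aspartic protease cathepsin D, at 438 and 551, Ctsz at 143 and 171 and the tripeptidyl peptidase gene Tpp1 at 44.3 and 58.3. Ctsa, a carboxypeptidase that also protects the sialidase and beta-galactosidase, stood at 103 and 97.1 CPM. Ctsh, an aminopeptidase gene, stood at 235 CPM (230 to 240) under DMSO and 185 CPM (181 to 190) under pyrvinium. Its log2 ratio of -0.34 was -0.09 with equal cluster weights, which leave out cluster 3 (412 CPM in its DMSO cells).

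Among glycosidases the sialidase gene Neu1 came nearest to the limit, with 167 CPM (163 to 171) and 247 CPM (242 to 252) and a log2 ratio of 0.57. It passed when scaled without mitochondrial and ribosomal protein genes (0.65) or by the median of ratios (0.66), and after subtraction of free RNA of barcodes with 10 to 100 counts (0.62). Gla stood at 15.3 and 19.9 CPM, the beta-galactosidase gene Glb1 at 24.3 and 30.9, and the mannosidase gene Man2b1 at 19.9 and 20.2. The beta-glucuronidase gene Gusb stood at 52.1 CPM (49.9 to 54.4) and 42.9 CPM (40.8 to 45.1), the single glycosidase with a ratio below 1.

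Membrane and lipid-handling genes other than Lipa lay under the limit over all cells. Lamp1 and Lamp2, the abundant glycoproteins of the lysosome membrane, were at 97.5 and 137 CPM and at 80.0 and 99.1. The log2 ratio of Lamp1, 0.49, reached 0.59 in cells of like depth, past the limit. The tetraspanin gene Cd63 stood at 979 CPM (970 to 989) and 984 CPM (974 to 994), a log2 ratio of 0.01 (-0.01 to 0.03). Npc1 and Npc2 together move cholesterol out of the lysosome. Npc1 stood at 3.58 CPM (3.01 to 4.21) and 5.02 CPM (4.32 to 5.80), and its ratio passed the limit after subtraction of free RNA of barcodes with 10 to 100 counts (0.89). Npc2 stood at 278 and 329 CPM, the saposin precursor gene Psap at 182 and 218, the acid ceramidase gene Asah1 at 91.2 and 105, and the progranulin gene Grn at 77.5 and 95.6.

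Promoter sequences from RefSeq on build GRCm38.p6 are shown for 5 of the 10 members whose window, from 250 bases before to 50 after the start of a transcript, holds the letters CACGTG, the core of the element bound by TFEB and TFE3, and for Sqstm1 as the member with the highest ratio. The 5 were chosen after their values were seen, Lgmn and Ctsl as members past the limit and Lamp1, Mcoln1 and Ctsd for repeated copies. Atg5, Atg7, Ctsa, Gla and Glb1 also hold the letters and are not shown. A window was available for 31 of the 38 genes, 37 windows in all. CACGTG was found in 10 of the 37 windows (27%), of 10 genes, against 7.15% of all 32851 windows. The longer TCACGTG, read on both strands and overlapping the first, was in 8 (21.6%, against 3.77% of all windows), and CACGTG with GT before it and AC after it was in 0 (0.326% of all). TTGCATCA, a composite element known from ATF4 targets, was in 0 (0.895% of all), and TGACNNNGC, the core of the antioxidant response element, in 6 (16.2%, 12.4% of all), both read on both strands. The stretches lie before the start site and are written 5′ to 3′ along the gene, with CACGTG and TGACNNNGC (or its reverse complement) in capitals.
Lamp1, chr8:13159090-13159160, plus strand: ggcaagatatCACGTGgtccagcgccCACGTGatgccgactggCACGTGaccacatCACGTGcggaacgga
Mcoln1, chr8:3500438-3500518, plus strand: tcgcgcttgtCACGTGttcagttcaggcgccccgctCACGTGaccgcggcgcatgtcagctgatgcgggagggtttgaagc
Ctsd, chr7:142387828-142388077, minus strand: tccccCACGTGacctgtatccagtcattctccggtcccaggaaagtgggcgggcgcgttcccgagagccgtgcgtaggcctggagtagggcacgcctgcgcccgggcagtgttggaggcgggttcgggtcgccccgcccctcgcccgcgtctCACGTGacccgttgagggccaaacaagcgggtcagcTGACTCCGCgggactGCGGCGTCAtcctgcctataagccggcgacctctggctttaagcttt
Ctsl, chr13:64370711-64370766, minus strand: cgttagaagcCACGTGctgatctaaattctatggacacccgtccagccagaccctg
Lgmn, chr12:102439096-102439151, minus strand: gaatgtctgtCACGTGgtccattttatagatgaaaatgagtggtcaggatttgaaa
Sqstm1, chr11:50210821-50210920, minus strand, no searched motif in the window: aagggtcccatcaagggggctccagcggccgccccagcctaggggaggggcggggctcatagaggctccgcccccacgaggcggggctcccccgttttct

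Lamp1 holds CACGTG 4 times within 61 bases of its start, and Mcoln1, Ctsd, Ctsa and Gla hold it 2 times each. The letters did not sort the members by ratio. The 10 genes with CACGTG had a median log2 ratio of 0.34, ranging from -0.08 (Ctsa) to 0.82 (Lgmn), and the 21 genes whose windows lack it had 0.26. Mcoln1 with 2 copies had a log2 ratio of -0.06, and Sqstm1, Gabarapl1 and Hexa have none in their windows. A match is a run of letters, and binding was not measured.

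Members were also compared within clusters, since the cells of the 2 libraries fell into clusters in different proportions. Cells were clustered without the 38 members and without 150 further lysosome and autophagy genes, which gave 7 clusters, numbered by size and described by their leading genes only. Cluster 1 (236 DMSO and 468 pyrvinium cells; led by Dusp4, Gdf15 and Kif13a), cluster 2 (455 and 42; Asf1b, Tyms, Fen1, genes of DNA replication and chromatin assembly, among the leading ones) and cluster 5 (187 and 68; Kif22, Prc1, Ccnb1, genes of mitosis) held at least 30 cells of both libraries. Cluster 3 (304 and 0; AA467197, Mgarp and Ndrg1 among the leading genes), cluster 6 (217 and 7; Ifitm1, Itln1, Mmp7) and cluster 7 (198 and 5; Fosb, Egr1, Thbs1) were nearly all DMSO, and cluster 4 (5 and 264; Atf5, Cldn2, Chac1) nearly all pyrvinium. A cluster of 1 library may be that library and not a kind of cell. Leading genes are given per cluster for both libraries together, so they need not describe the cells of each library. Those of cluster 1 also include the stress-induced gene Ddit3. After thinning, 17 of 236 DMSO cells and 338 of 468 pyrvinium cells of cluster 1 held a Ddit3 count. Whether the leading genes of cluster 1 describe its DMSO cells was not tested.

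Sqstm1 and Gabarapl1 were at least 1.5-fold higher under pyrvinium within each of the 3 shared clusters, and Ulk1 was lower in each. In cluster 1 Sqstm1 stood at 69.7 CPM under DMSO and 272 CPM under pyrvinium, a log2 ratio of 1.96 (1.83 to 2.10). It stood at 45.7 and 107 CPM in cluster 2 and at 54.1 and 147 in cluster 5. Gabarapl1 stood at 20.3 and 40.8 CPM in cluster 1, 16.1 and 24.2 in cluster 2 and 18.2 and 42.3 in cluster 5. Its log2 ratio in cluster 2, 0.59 (0.07 to 1.08), sat on the limit and rests on 41 pyrvinium counts. After thinning, 2.38% of the 42 pyrvinium cells of cluster 2 held a Gabarapl1 count, too few cells to compare shares. The lowest DMSO share, 7.49%, was in another cluster, cluster 5. Ulk1 stood at 7.02 and 4.26 CPM in cluster 1, a log2 ratio of -0.72 (-1.24 to -0.18), at 6.79 and 2.36 in cluster 2 (-1.53, -3.43 to -0.12) and at 7.78 and 3.20 in cluster 5 (-1.28, -2.52 to -0.21). The pyrvinium cells of clusters 2 and 5 held only 4 and 9 Ulk1 counts. Cluster 4, whose pyrvinium cells have no DMSO counterpart, had Ulk1 at 8.15 CPM, in the range of the DMSO clusters, 6.49 to 12.2.

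The enzyme genes were called in some shared clusters only. Ctsl passed in clusters 2 (103 and 193 CPM) and 5 (125 and 232) and stood at 187 and 270 in cluster 1. Lgmn passed in clusters 1 (37.9 and 76.1 CPM) and 5 (47.3 and 94.9), and Hexa in clusters 1 (19.6 and 43.0) and 2 (12.4 and 21.2). Atg12 was higher in clusters 1 (22.6 and 39.4 CPM) and 5 (25.6 and 52.6). In cluster 1, 9 of 38 members were higher and 1 lower, where 8.17% and 19.6% of 12999 genes were. The members higher there also included Lamp2, Ctsb, Psap and Grn, with log2 ratios of 0.60 to 0.69. In cluster 2 the counts were 5 and 1 (5.17% and 12.2% of 11598 genes) and in cluster 5 they were 7 and 4 (11.7% and 13.3% of 10374). The higher ones also included Man2b1 in cluster 2 (log2 ratio 0.60) and Tfe3 and Neu1 in cluster 5 (0.92 and 0.70). The 4 lower ones in cluster 5 were Ulk1, Mcoln1, Map1lc3a and Map1lc3b. Map1lc3b stood at 278 and 152 CPM there, at 168 and 128 in cluster 1 and at 222 and 209 in cluster 2, so the difference in this gene was uneven over clusters. Whether the ratios differ between clusters was not tested.

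**Figure D2:**
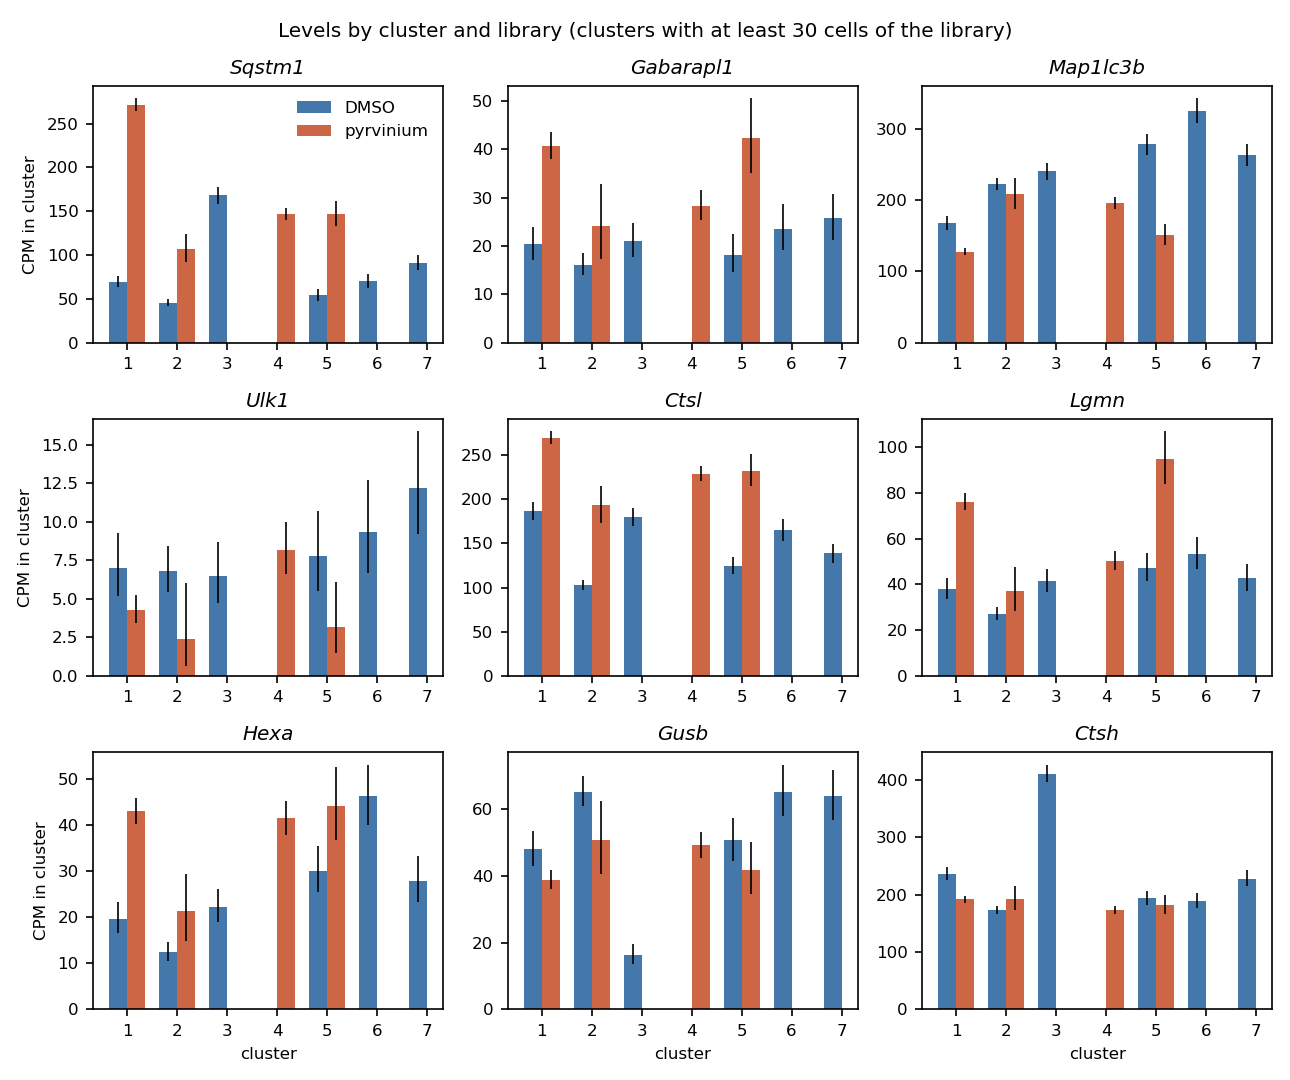
CPM of 9 genes in each cluster, DMSO in blue, pyrvinium in orange and 95% counting intervals as bars; clusters with under 30 cells of a library are left out. Sqstm1 is higher under pyrvinium in clusters 1, 2 and 5, and within DMSO it peaks in cluster 3, where Ctsh peaks and Gusb is lowest.

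The clusters of the DMSO library also differed among themselves. Over its 6 clusters with at least 30 cells, the highest level of a member was a median of 1.94 times the lowest, with a range from 1.27 for Ctsz to 3.99 for Gusb. In the 4 pyrvinium clusters the median was 1.64. Cluster 2 had the lowest level for 22 of 38 members in the DMSO library and for 22 in the pyrvinium library. Clusters 3, 6 and 7 had the highest for 12, 12 and 11 members. Cluster 3 had Sqstm1 at 168 CPM, Ctsh at 412, Gabarap at 464 and Ctsb at 253, the highest of the DMSO clusters, but Gusb at 16.4 against 48.1 to 65.3 in the others. Hexa was highest in cluster 6, at 46.2 CPM, above its 43.0 CPM in pyrvinium cells of cluster 1.

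The 2 libraries were then divided by Ddit3, the gene of the stress-induced transcription factor CHOP, to see which members differ between cells with and without a count of it. Ddit3 stood at 39.1 CPM under DMSO and 311 under pyrvinium. After thinning, 201 DMSO cells had a Ddit3 count and 1401 had none, and 495 pyrvinium cells had one and 359 had none. Before thinning, the medians of cells with and without were 17810 and 18774 counts in the DMSO library and 33103 and 28465 in the pyrvinium library. Before thinning, 29.7% of DMSO cells and 85.9% of pyrvinium cells held a Ddit3 count, so many pyrvinium cells without a count after thinning do hold Ddit3, and cells without it are not compared between libraries. Sqstm1 was the 1 member called higher in cells with Ddit3 in both libraries. It stood at 227 CPM in DMSO cells with Ddit3 and 68.5 CPM in those without, a log2 ratio of 1.73 (1.49 to 1.96), and at 289 and 150 CPM in the pyrvinium library, 0.95 (0.74 to 1.16). Of the 201 DMSO cells, 113 lay in cluster 3. Within that cluster Sqstm1 stood at 310 and 119 CPM (log2 ratio 1.38, 1.03 to 1.73). Within the pyrvinium library it stood at 339 and 172 CPM in cluster 1 and at 218 and 140 in cluster 4.

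Gusb had the opposite pattern. It stood at 28.9 CPM in DMSO cells with Ddit3 and 59.7 in those without, and at 29.5 and 45.1 in the pyrvinium library. Within DMSO cluster 3 it stood at 8.85 and 26.2 CPM (log2 ratio -1.56, -3.31 to -0.15). Within pyrvinium clusters 1 and 4 the Gusb intervals included equal levels (log2 ratios -0.43, -1.11 to 0.28, and -0.55, -1.55 to 0.36). Ctsh was higher in DMSO cells with Ddit3 (347 and 226 CPM) and lay at 184 and 196 CPM in the pyrvinium library. Of the DMSO cells with Ddit3, 113 lay in cluster 3, which held 0 pyrvinium cells. Ctsh stood at 412 CPM in that cluster and at 173 to 237 CPM in the other DMSO clusters of at least 30 cells. Ctsh was not split by Ddit3 within clusters, so the part of cluster mix in its difference was not tested. Tfeb had 0 counts in the DMSO cells with Ddit3 and 35 in those without. With Tfeb set at a floor of 3 counts, 2 members were higher and 2 lower in the DMSO library, where 6.83% and 8.22% of 10675 genes were. In the pyrvinium library 1 was higher and 1 lower (1.76% and 5.52% of 8789). Gabarapl1, called between treatments, had log2 ratios of -0.18 (-0.97 to 0.53) and 0.11 (-0.36 to 0.60) between cells with and without Ddit3 in the DMSO and pyrvinium libraries.

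**Figure D3:**
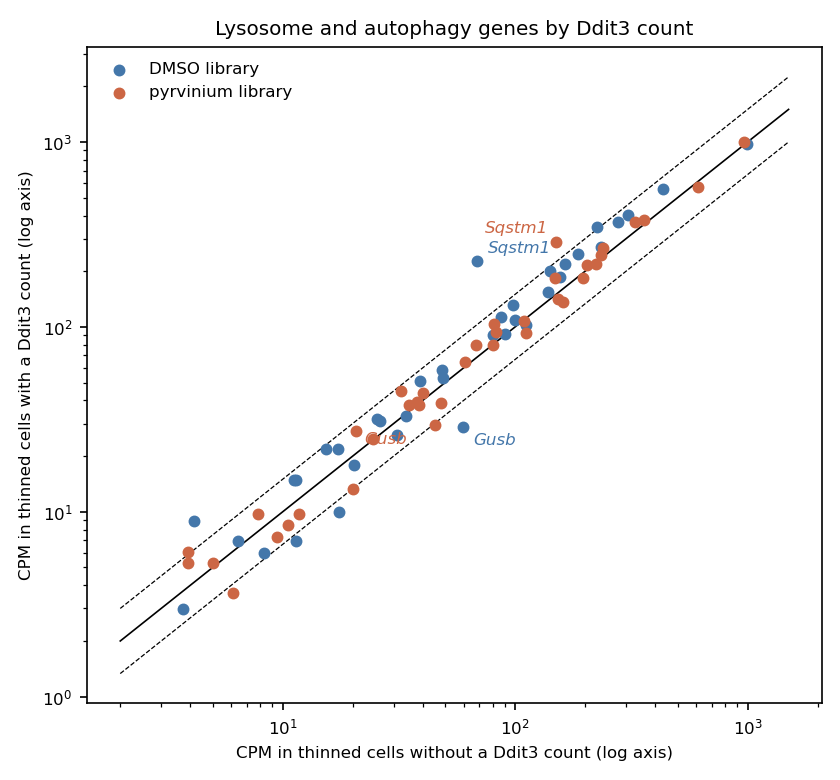
Level of each gene in cells with a Ddit3 count (vertical) against cells without (horizontal), each cell thinned to 5000 counts, in CPM on log axes, DMSO in blue and pyrvinium in orange; a gene with 0 counts in cells with Ddit3 is left out. Sqstm1 lies above the dashed 1.5-fold line in both libraries (227 against 68.5 CPM under DMSO, 289 against 150 under pyrvinium) and Gusb below it.

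Per cell, the lysosome members together shifted by a few counts. At 5000 counts per cell the 23 genes gave a median of 16 counts per DMSO cell, with quartiles of 13 and 21. For pyrvinium cells the median was 20 and the quartiles 16 and 24, so most cells of both libraries lay in a shared range. The 12 autophagy members, with Sqstm1 among them, gave medians of 4 (3 and 6) and 5 (3 and 7). Without thinning, the deeper pyrvinium cells held 130 counts of lysosome members against 66, and 33.5 of autophagy members against 17. Across cells the sums of the 2 groups had a Pearson r of 0.36 over 1602 DMSO cells and 0.27 over 854 pyrvinium cells, where all cells of a library share its preparation. Of the members Sqstm1 had the highest ratio of variance to mean over thinned cells, 1.68 in the DMSO library, close to 1.67 for Ctsl, and 2.23 in the pyrvinium library. The median over the 33 members at 10 CPM or more was 1.12 and 1.11, and over all such genes 1.07 and 1.05.

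**Figure D4:**
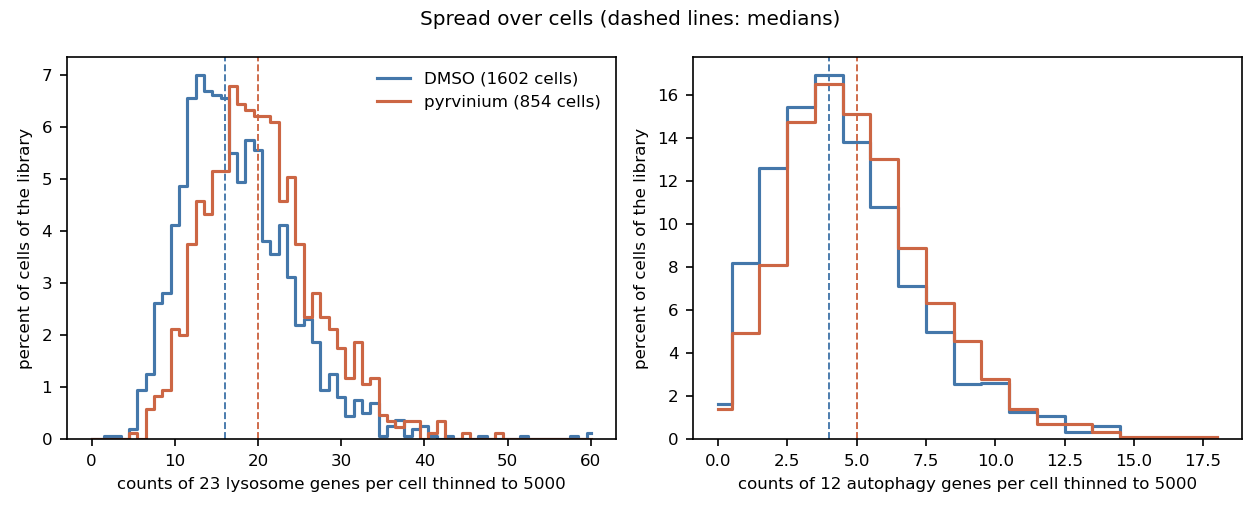
Percent of cells (vertical) by the summed counts of the 23 lysosome (left) and 12 autophagy genes (right) in each cell thinned to 5000 counts, for DMSO (blue) and pyrvinium (orange). The lysosome medians, dashed, are 16 and 20 counts, and the curves overlap over most of their range.

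Of 7 further lists, the other lysosomal hydrolases came nearest to the members. Of 32 measured, 6 were at least 1.5-fold higher (18.8%) and 1 lower (3.12%), against 7.57% and 15.5% of all genes tested, with a median log2 ratio of 0.30. Ctsc, the gene of the dipeptidyl peptidase cathepsin C, stood at 78.9 and 143 CPM, the acid alpha-glucosidase gene Gaa at 22.3 and 36.1 and the sulfatase gene Arsb at 7.35 and 11.4. The nuclease gene Dnase2a was lower, at 63.9 and 38.9. Lysosomal membrane and sorting genes gave 0 higher and 2 lower of 22 (median 0.03), Nagpa (11.9 and 7.94 CPM), an enzyme gene of the mannose 6-phosphate tag, and Tpcn2. Of the 16 vacuolar ATPase genes, which encode the pump that acidifies the lysosome, 0 passed in either direction (median 0.10), with Atp6v1a at 37.6 and 55.9 CPM and Atp6v1g1 at 300 and 432.

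The wider autophagy machinery had medians nearer to that of all genes tested. Of 24 initiation and elongation genes 1 was higher (Atg10, 4.17%) and 2 were lower (8.33%), both shares under the 7.57% and 15.5% of all genes (median -0.15). Pik3c3, the catalytic subunit gene of the Beclin 1 lipid kinase, stood at 11.6 and 6.86 CPM, and Atg101, a partner of ULK1, at 90.6 and 54.5. Of 16 receptor genes 1 was higher (Stbd1, from a low level; 6.25%) and 2 were lower (12.5%), near the shares of all genes (median -0.14). Both of the latter are mitophagy receptor genes that respond to hypoxia. Bnip3l stood at 46.7 and 22.6 CPM, and Bnip3 at 419 and 48.5. Of 13 genes of fusion with the lysosome 0 were higher and 1 was lower (median -0.02), the tethering gene Vps33a, at 14.8 and 7.64 CPM.

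Genes of mTORC1, the nutrient-sensing kinase complex at the lysosome surface, gave 4 of 26 higher (15.4%) and 1 lower (3.85%), against 7.57% and 15.5% of all genes (median 0.06). Ddit4, which encodes a stress-induced mTORC1 inhibitor, stood at 61.4 and 99.6 CPM, and the kinase gene Mtor at 15.4 and 18.9. Sesn2, another stress-induced inhibitor of the complex, stood at 19.6 and 17.0 CPM. The other 3 higher genes, Rragd, Fnip2 and Castor1, and the lower one, Mlst8, were all under 10 CPM. These, with Tpcn2, Atg10 and Stbd1, were named after their values were seen.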

How the data were processed

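Per the labels' protocols, cells were captured with the PIPseq method and libraries made with its T2 kit. The deposited matrices hold whole-number counts per gene and barcode, not normalized. The submitters' processing notes name Partek and GRCm39. The sources used here do not give the aligner, counting rules, use of strand, barcode filters or dose of pyrvinium, and reads shared by overlapping genes or near-identical copies may be split in unknown ways, and intervals cover counting error only.

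Barcodes with at least 9320 (DMSO) or 13100 (pyrvinium) counts were kept, a limit set at 1/10 of the 99th percentile among the 2000 largest barcodes; limits of 500 genes and 20% mitochondrial counts removed 0. Doublets were kept in the main setting. Counts were summed over cells, to 39980497 and 37046673, and scaled to CPM, with exact Poisson intervals. Ratios have exact conditional binomial intervals, shares exact Clopper-Pearson ones. A gene was called when its ratio reached 1.5 with its whole interval beyond 1. With 1 library per group no test was possible and cells were not treated as replicates. On counts simulated as Poisson draws, the model that the intervals assume, 95.6% of intervals held the true ratio. Extra spread between cells or cultures was not simulated, so this checks the computation only.

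Clustering used scanpy 1.11.5 with 2000 variable genes z-scored within each library, 30 components, 15 neighbours and Leiden resolution 0.5. Thinning to 5000 counts left out 0 cells. The members, roles and lists were chosen with earlier results of these data known. Genes named beside the members are up to 4 per list with the largest log2 ratio of either sign at 10 CPM or more in a library, and a few fixed regulators. Under a symbol shared by several genes, as for Ddit3, the lowest Ensembl number was used. Motifs were counted in RefSeq promoter windows of another build (GRCm38.p6), by gene symbol.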

Additional observations from a re-analysis of the deposited data

How the results depend on the processing

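No paired analysis was possible because each group has 1 library, and for the same reason no library could be left out. Over 11 alternatives (other cell thresholds, scalings, weights, doublet removal, free RNA subtraction, cells of like depth and a minimum of 100 counts) the number of members at least 1.5-fold higher lay between 5 and 8, and their median log2 ratio between 0.23 and 0.38. The number lower went from 1 to 2 at cell thresholds of 1000 and 3000 counts, without the 5% of cells with the highest Scrublet scores and with equal cluster weights, and to 0 when scaled by the median of ratios or without mitochondrial and ribosomal protein genes. In the 10 alternatives that apply to single genes, 5 members stayed higher in all, 0 stayed lower in all and 24 stayed under the limit in all; 0 called values changed sign. The other hydrolases had 3 to 10 higher, and the vacuolar ATPase 0 to 2. Free RNA in cells was not measured, and its 10% share is an assumption. The values of cluster 2 under pyrvinium rest on 42 cells.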
